A study of Homo sapiens with 4 samples.

Results

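The genes described here are 10 genes of transforming growth factor beta (TGF-beta) signaling in BEAS2B cells: the ligand genes *TGFB1*, *TGFB2* and *INHBA*, the receptor genes *TGFBR1* and *TGFBR2*, the signal transducer *SMAD3* and its inhibitor *SMAD7*, and the target genes *CTGF*, *CYR61* and *THBS1*. They were chosen by name from the 16708 genes that were listed in at least 1 library. All 10 were listed in all 4 libraries, and all 10 passed the filter for testing, a mean over the libraries of 0.5 RPKM or more, as 11829 genes did. RPKM are read numbers scaled to the length of the gene and to the total reads of the library. BEAS2B is a virus-transformed line of human bronchial epithelial cells, grown here in medium with fetal bovine serum, and the labels name no added ligand. The sh-QKI group comprised 2 libraries from cells with a stably expressed shRNA against all isoforms of the RNA-binding protein QKI (sh-Q3), delivered by a retrovirus, and the sh-Ctrl group comprised 2 libraries from cells that expressed an shRNA against luciferase (sh-Luc) in the same way. Only 1 shRNA against QKI was sequenced, and the labels number the libraries of each group 1 and 2.

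TGF-beta ligands are secreted in a latent form and, once released, bring together type II and type I receptors, which are serine/threonine kinases. The type I receptor phosphorylates SMAD2 and SMAD3, which enter the nucleus with SMAD4 and regulate transcription, and SMAD7 is induced by the pathway and blocks the type I receptor. CTGF, CYR61 and thrombospondin 1 (THBS1) are matricellular proteins, which are secreted into the matrix and signal to cells rather than build it. In epithelial cells of the airway the pathway is known for growth arrest, matrix production and epithelial-mesenchymal transition. *CTGF* and *CYR61* are also classical targets of the YAP and TEAD transcription factors of the Hippo pathway.

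The target of sh-Q3 is printed here because it defines the comparison; it lies in the coding part of exon 4 of the canonical *QKI* transcript, on the plus strand of hg19 at chr6:163956115-163956133, and of the genes listed here was found in the canonical transcript of 1 gene.
sh-Q3 target: gaagagagcagttgaagaa

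*QKI* mRNA was at 2.52 and 3.85 RPKM in the sh-QKI libraries 1 and 2, and at 8.94 and 14.6 RPKM in the sh-Ctrl libraries 1 and 2. The groups did not overlap, and the log2 difference was -1.64 within number 1 and -1.80 within number 2. The totals of reads recovered from the RPKM were between 20052951 and 34862008 per library. Libraries of the same number were far more alike than libraries of the same group: over the tested genes, the SD of the log2 difference was 0.20 and 0.21 between sh-QKI and sh-Ctrl libraries of number 1 and number 2, and 0.66 and 0.81 between numbers 2 and 1 within sh-QKI and sh-Ctrl cells. The recovered totals also split by number, with 20571555 and 20052951 reads in sh-QKI and sh-Ctrl library 1, and 34862008 and 34706058 in library 2. The paper states that the sequencing was repeated with another read length, without saying which libraries belong to which round. The labels tie no culture, day, round or read length to a number, and whether the numbers stand for these rounds was not tested. The number is therefore treated as a batch found in the data, and sh-QKI is compared with sh-Ctrl within each number. Of 9 markers of airway epithelium 6 reached 0.5 RPKM in at least 1 library, with *KRT8* between 91.5 and 248 RPKM, while *KRT5* and *KRT14* were listed in no library and *CDH1* was at most at 0.181 RPKM. The summed level of the 9 markers was between 271 and 697 RPKM in sh-QKI libraries and between 225 and 739 RPKM in sh-Ctrl libraries. *CD68*, a marker of macrophages that other cells also express, was at 14.7 and 12.2 RPKM in sh-QKI libraries, against 17.3 and 16.1 RPKM in sh-Ctrl libraries. Both sh-QKI libraries were thus below both sh-Ctrl libraries, as for 2.89% of the tested genes. *CD14*, a marker of monocytes, was at 0.794 and 4.84 RPKM in sh-QKI libraries, against 0.815 and 5.22 RPKM in sh-Ctrl libraries, while the T cell marker *CD3E* was listed in no library; their part in the results was not tested.

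QKI binds the RNA sequence ACUAAY, where Y is C or U. On the sense strand of the last 1000 bases of the canonical transcripts, the words ACTAAC and ACTAAT were found in 1 of the 10 genes, against 24.4% of 15039 genes with a transcript of this length. The match was in *CYR61*, in the 3′ UTR, 724 bases from the 3′ end, on the plus strand of hg19 at chr1:86048898-86048927. It is shown because it is the only such word in these windows of the 10 genes (capitals mark the word), and it is a match of letters, not a known site.
CYR61 3′ UTR: gtgcggatggacACTAATgcagccacgatt

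The 250 bases before the transcription start are shown for *CTGF* and *THBS1*, since both encode matricellular proteins and both hold the word GGAATG, which the TEAD factors recognize (searched on both strands, as GGAATG or CATTCC; capitals mark it). The sequences are from RefSeq in build GRCh38.p14, where *CTGF* is entered as CCN2, at chr6:131951373-131951622 on the minus strand for *CTGF* and at chr15:39580829-39581078 on the plus strand for *THBS1*.
CTGF promoter: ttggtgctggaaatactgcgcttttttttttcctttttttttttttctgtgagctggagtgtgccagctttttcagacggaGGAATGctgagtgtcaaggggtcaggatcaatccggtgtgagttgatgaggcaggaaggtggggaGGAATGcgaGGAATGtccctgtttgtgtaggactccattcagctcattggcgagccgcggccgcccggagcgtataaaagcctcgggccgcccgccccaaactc
THBS1 promoter: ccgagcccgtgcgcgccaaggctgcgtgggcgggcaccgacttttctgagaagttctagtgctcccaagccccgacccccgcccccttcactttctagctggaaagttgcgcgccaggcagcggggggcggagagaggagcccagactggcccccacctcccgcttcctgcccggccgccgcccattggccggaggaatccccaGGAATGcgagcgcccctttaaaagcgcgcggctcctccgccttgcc

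*CTGF* held 3 such words, which began 169, 104 and 95 bases before the start, and *THBS1* held 1, which began 46 bases before it. At least 1 word was present in 11.9% of 35116 promoters, and at least 3 were present in 0.0826%. The AP-1 word TGANTCA was found in neither promoter, and each held 1 SMAD word (CAGAC or GTCTG), as at least 1 did in 38.0% of promoters. Of the ligand promoters, that of *TGFB2* held 1 TEAD word, 185 bases before the start, and those of *TGFB1* and *INHBA* held 0. Of the 8 *TGFBR1* promoters entered, 1 held a TEAD word, 132 bases before the start, and the promoter of *CYR61* was not searched.

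By RPKM as deposited, the matricellular genes *CYR61* and *THBS1* were the most abundant of the 10 mRNAs. The lengths used by the authors are not given. Those recovered here, the smallest that gave whole reads, were between 0.674 times (*TGFB1*) and 2.31 times (*TGFBR1*) the union of annotated exons. Levels of different genes are therefore only roughly comparable, while comparisons of a gene between libraries are not touched by this. The mean RPKM over the 4 libraries was 288 for *CYR61* and 130.1 for *THBS1*. It was 42.9 for *SMAD3*, 41.4 for *CTGF*, 29.0 for *TGFB2*, 25.8 for *TGFB1*, 19.8 for *TGFBR1* and 15.8 for *TGFBR2*. *SMAD7* followed with 4.65 and *INHBA* with 0.873. In RPKM, the ranges of *CYR61* and *THBS1* over the libraries, those of *THBS1* and *SMAD3*, those of *TGFBR2* and *SMAD7* and those of *SMAD7* and *INHBA* did not overlap. Those of neighbours from *SMAD3* down to *TGFBR2* overlapped, so their order is within the spread between libraries. By RPKM, *CYR61* ranked between 42 and 51 among the genes of a library, and *INHBA* between 10733 and 11652.

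**Figure D1:**
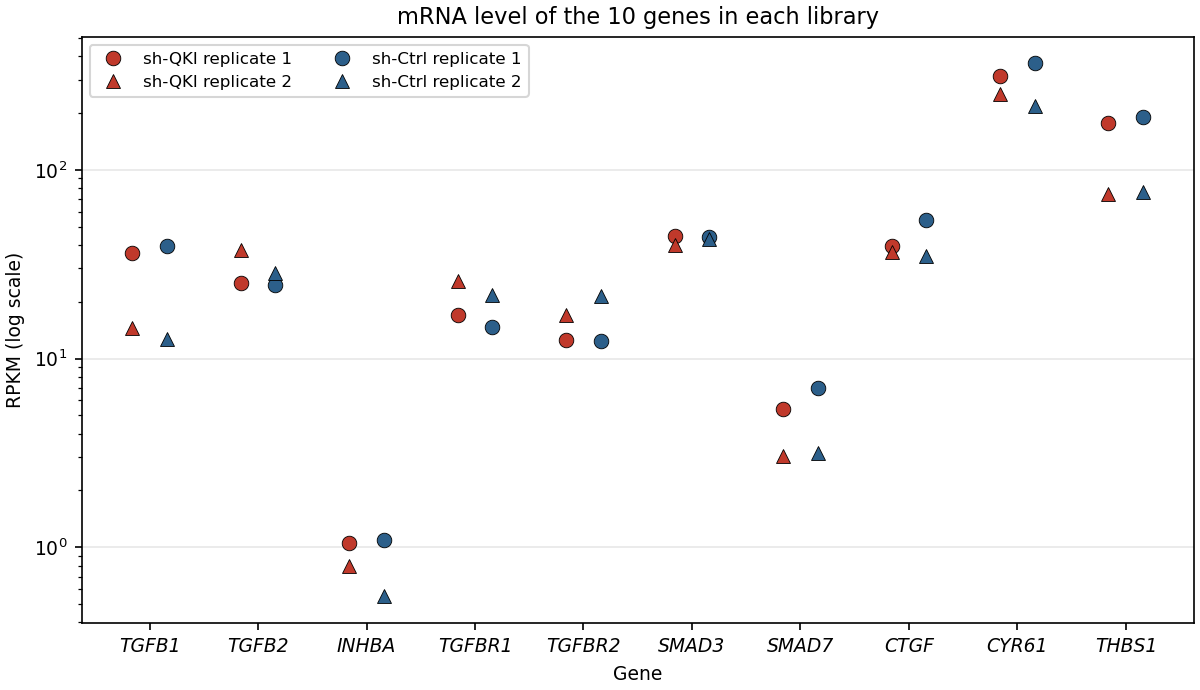
RPKM of each of the 10 genes (x axis) in each library (y axis, log scale), with sh-QKI libraries in red to the left of sh-Ctrl libraries in blue, and replicate 1 as circles and replicate 2 as triangles. The circles and triangles of *TGFB1* and *THBS1* lie farther apart than the colors do, and for each gene the libraries of the groups overlap.

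No ligand gene differed between sh-QKI and sh-Ctrl cells beyond the spread. By counting error alone, *TGFB2* and *INHBA* were set apart from sh-Ctrl cells within number 2 but not within number 1. By the same measure *TGFB1* was set apart within both numbers, in opposite directions. *TGFB1*, which encodes the founding ligand of the family (hg19 chr19:41807492-41859827, minus strand), was at 36.5 and 14.4 RPKM in sh-QKI libraries 1 and 2, against 39.7 and 12.8 RPKM in sh-Ctrl libraries 1 and 2. Both libraries numbered 1 were high and both numbered 2 low, so the groups overlapped, with log2 differences of -0.12 and 0.17 within number 1 and number 2. The ratios of reads after division by the totals were 0.918 (exact 95% interval 0.858 to 0.982, counting error only) and 1.13 (1.04 to 1.23). *TGFB2*, which encodes the ligand that depends most on the co-receptor betaglycan (chr1:218518678-218617961, plus strand), was at 24.997 and 37.8 RPKM in sh-QKI libraries, against 24.7 and 28.3 RPKM in sh-Ctrl libraries. Only sh-QKI library 2 was clearly higher than the others. The log2 difference was 0.019 within number 1 and 0.41 within number 2, where 8384 recovered reads in the sh-QKI library were set against 6255 in the sh-Ctrl library, a ratio of 1.33 after division by the totals (exact 95% interval 1.29 to 1.38, counting error only). With 1 library a group in each number, whether the numbers differ in this change could not be tested. *INHBA*, which encodes the beta-A subunit of inhibins and activins (chr7:41706766-41745432, minus strand), was near the limit of 0.5 RPKM, at 1.05 and 0.795 RPKM in sh-QKI libraries, against 1.09 and 0.551 RPKM in sh-Ctrl libraries. These levels rest on 219 and 280 reads in sh-QKI libraries and 221 and 193 reads in sh-Ctrl libraries, and the log2 differences were -0.034 and 0.30. The ratio of reads within number 2, after division by the totals, was 1.44 (exact 95% interval 1.198 to 1.74, counting error only), and the pseudocount makes the log2 difference of this low gene smaller than that ratio.

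The balance of the TGF-beta ligand mRNAs differed far more between the replicate numbers than between sh-QKI and sh-Ctrl cells of a number. The ratio of *TGFB2* to *TGFB1* in RPKM was 0.686 in sh-QKI library 1 and 2.62 in sh-QKI library 2, against 0.621 in sh-Ctrl library 1 and 2.22 in sh-Ctrl library 2. The ratio was higher in both libraries numbered 2. Its size depends on the gene lengths used by the authors, which are not given, so which mRNA was more abundant in number 1 is not settled. The recovered lengths were 0.674 times the union of annotated exons for *TGFB1* and 1.05 times for *TGFB2*.

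The receptor genes gave the steadiest difference and a split. *TGFBR1*, which encodes the type I receptor (chr9:101866320-101916474, plus strand), was at 17.1 and 25.6 RPKM in sh-QKI libraries, against 14.7 and 21.7 RPKM in sh-Ctrl libraries. The sh-QKI library was the higher of each number, with log2 differences of 0.21 and 0.23, but the groups overlapped. With the replicate number as a block, the estimate was 0.22 (95% interval -0.0094 to 0.45, limma adjusted p = 0.866), and it was the largest in size of the 10 genes in this fit. That rank depends on the setting: with the block and median centring *SMAD7* was at -0.23 and *CTGF* at -0.22, against 0.19 for *TGFBR1*. By voom with the block *INHBA* was at 0.24 and *TGFB2* at 0.231, against 0.228 for *TGFBR1*. *TGFBR2*, which encodes the type II receptor that binds the ligand first (chr3:30648093-30735634, plus strand), was at 12.6 and 17.0 RPKM in sh-QKI libraries, against 12.4 and 21.3 RPKM in sh-Ctrl libraries. The libraries of number 1 were nearly equal, with a log2 difference of 0.019, and in number 2 the sh-QKI library was lower by a log2 difference of -0.32. The ratio of *TGFBR1* to *TGFBR2* in RPKM was 1.36 and 1.51 in sh-QKI libraries 1 and 2, against 1.19 and 1.02 in sh-Ctrl libraries 1 and 2, without overlap and without a test, as the pair was looked at after its values were seen. That of *CYR61* to *CTGF* did not overlap either, at 7.95 and 6.86 in sh-QKI libraries, against 6.80 and 6.23 in sh-Ctrl libraries. The other ratios that were looked at overlapped, and how often pairs of genes separate in this way was not tested.

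*SMAD3*, which encodes the transducer that the type I receptor phosphorylates (chr15:67356101-67487511, plus strand), had the narrowest range of the 10 genes relative to its mean. It was at 44.8 and 40.2 RPKM in sh-QKI libraries, against 43.9 and 42.8 RPKM in sh-Ctrl libraries, with log2 differences of 0.029 and -0.090. *SMAD7*, which encodes the inhibitor of the type I receptor (chr18:46446223-46477335, minus strand), was at 5.42 and 3.03 RPKM in sh-QKI libraries, against 6.97 and 3.17 RPKM in sh-Ctrl libraries. The sh-QKI library was the lower of each number, but hardly so in number 2, where the log2 difference was -0.056; in number 1 it was -0.33. In reads, *SMAD7* had 356 and 337 in sh-QKI libraries, against 446 and 351 in sh-Ctrl libraries.

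The matricellular target genes did not move in 1 direction. *CTGF*, which encodes connective tissue growth factor (chr6:132269316-132272512, minus strand), was at 39.7 and 36.8 RPKM in sh-QKI libraries, against 53.9 and 35.0 RPKM in sh-Ctrl libraries. Only sh-Ctrl library 1 stood apart from the other libraries. The log2 difference within number 1, -0.44, was the largest of all 20 within-number differences of the 10 genes on the scale of log2(RPKM + 0.5), with 1910 against 2528 recovered reads and a ratio of 0.737 (exact 95% interval 0.694 to 0.782, counting error only). Within number 2 the ratio was 1.05 (0.999 to 1.11) and the log2 difference 0.072. *CYR61*, the closest relative of *CTGF* among the 10 genes (chr1:86046444-86050272, plus strand), was at 315 and 252 RPKM in sh-QKI libraries, against 366 and 218 RPKM in sh-Ctrl libraries. Both sh-QKI libraries lay between the sh-Ctrl libraries, with log2 differences of -0.22 and 0.21 that cancelled in the mean. *THBS1*, which encodes a secreted glycoprotein able to release TGF-beta from its latent form (chr15:39873280-39891667, plus strand), was at 178 and 74.8 RPKM in sh-QKI libraries, against 191 and 76.5 RPKM in sh-Ctrl libraries. It was slightly lower in the sh-QKI library of each number, with log2 differences of -0.11 and -0.033, and the groups overlapped.

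With an adjusted p under 0.05 as the threshold, limma without a block called 0 of the 10 genes, where 0.0% of the 11829 tested genes were called. Before adjustment, 4 genes were higher and 9 lower with p under 0.05, none of them among the 10, and voom without a block called 0 genes. The standard errors of the 10 log2 differences were between 0.26 and 0.74 in this fit, since the difference between the numbers counts there as spread within a group. Separate cultures for the libraries of a group are not stated in the labels or methods, so all p-values here refer to the spread among these 4 libraries, which could be technical. With the replicate number as a block, the standard errors were between 0.12 and 0.16, and again 0 of the 10 genes were called, where 0.49% of the tested genes were called higher and 0.364% lower (0.854% in either direction). *QKI* was called with the block (log2 difference -1.72, limma adjusted p = 3.16e-33). This fit has 1 residual degree of freedom per gene and takes most of its spread from the other genes. The 95% intervals of this fit all hold 0. For *TGFB1* the interval is -0.20 to 0.25, for *TGFB2* -0.013 to 0.44, for *INHBA* -0.18 to 0.45 and for *TGFBR2* -0.39 to 0.086. It is -0.26 to 0.19 for *SMAD3*, -0.47 to 0.079 for *SMAD7*, -0.41 to 0.043 for *CTGF*, -0.25 to 0.25 for *CYR61* and -0.30 to 0.16 for *THBS1*. Changes over 2-fold on this scale, which understates those of the low gene *INHBA*, lie outside these intervals, and the smaller ones within them were not detectable with 2 libraries a group. Without the block the 95% intervals were wider, from -0.73 to 0.67 for *SMAD3* up to -1.96 to 2.01 for *TGFB1*, and some of them hold changes over 2-fold. In bulk RNA, fewer cells that express a gene and less RNA per cell cannot be told apart.

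Of the 10 genes, 2 were higher in the sh-QKI library of both numbers (*TGFB2* and *TGFBR1*), where 31.7% of the tested genes were, and 2 were lower in both (*SMAD7* and *THBS1*), where 16.6% were. In none were both sh-QKI libraries above both sh-Ctrl libraries (5.71% of the tested genes) or below them (2.89%). Differences of at least 1.2-fold were found for 2 genes within number 1, *CTGF* and *SMAD7*, where 15.3% of the tested genes had one, and for 3 genes within number 2, *TGFB2*, *INHBA* and *TGFBR2*, where 16.7% had one. No gene was in both of these sets. Differences over 2-fold were found for 0 of the 10 genes within number 1 (0.101% of the tested genes), within number 2 (0.211%) and within both (0.0507%). The median log2 difference with the block was -0.016 over the 10 genes and 0.033 over all tested genes.

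**Figure D2:**
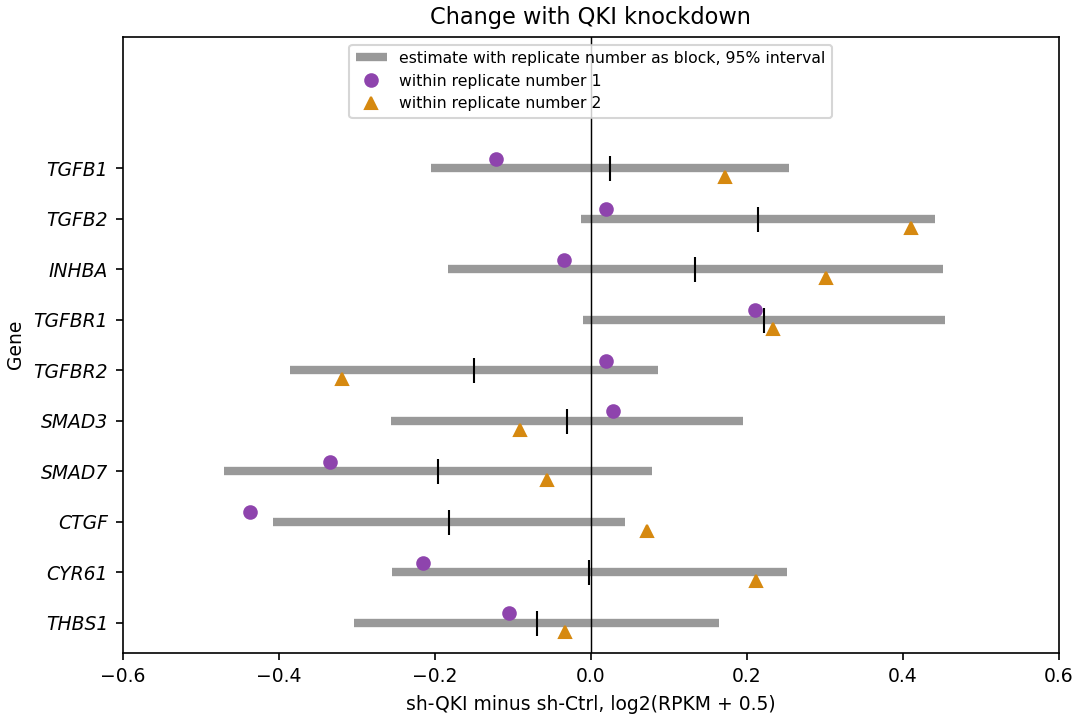
Log2 difference between sh-QKI and sh-Ctrl (x axis, log2 of RPKM + 0.5) for each of the 10 genes (y axis). Circles are the difference within replicate number 1, triangles that within replicate number 2, and gray bars with a black tick the 95% interval and estimate of limma with the number as a block; every bar crosses 0, and circle and triangle lie on opposite sides of 0 for 6 genes.

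The differences between the replicate numbers were much larger than those with the knockdown for most of the 10 genes. In a limma fit of number 2 against number 1 with the group as a term, 9 of the 10 genes were called, where 70.9% of the tested genes were: 3 were higher in number 2 (35.2% of the tested genes) and 6 lower (35.7%). *TGFB1* was lower in number 2 by a log2 difference of -1.45 (standard error 0.12, limma adjusted p = 1.11e-33) and *THBS1* by -1.28 (standard error 0.12, limma adjusted p = 1.85e-25). Both were lower over 2-fold in sh-QKI and in sh-Ctrl cells, as 6.33% of the tested genes were (11.1% in either direction). *SMAD7* differed by -0.89, *CYR61* by -0.53, *INHBA* by -0.43 and *CTGF* by -0.36. *TGFBR2* was higher in number 2 by 0.59, *TGFBR1* by 0.56 and *TGFB2* by 0.39. Only *SMAD3* was not called, with -0.095 (95% interval -0.32 to 0.13, limma adjusted p = 0.459). The calls of *CTGF*, *TGFB2* and *INHBA* were each lost without a single library. Without sh-Ctrl replicate 1 *CTGF* was at -0.14 (limma adjusted p = 0.354), without sh-QKI replicate 2 *TGFB2* was at 0.19 (limma adjusted p = 0.157). *INHBA* was at -0.28 without sh-Ctrl replicate 2 (limma adjusted p = 0.276), at -0.41 without sh-Ctrl replicate 1 (limma adjusted p = 0.107) and at -0.45 without sh-QKI replicate 1 (limma adjusted p = 0.0769).

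GC content moved with this difference across genes. Over 11580 tested genes with an annotated canonical transcript, the log2 difference between the numbers had a Pearson r of -0.69 with the GC content of the transcript; genes are not independent replicates, and this is given as a description. The median difference was 0.62 for genes with up to 41.9% GC, 0.23 for those from there to 48.6%, -0.23 for those from there to 57.1%, and -0.69 for those above. *TGFB1*, with 63.6% the richest in GC of the 10 transcripts, was the lowest in number 2, and *TGFBR1*, with 38.8% the poorest, was higher there. *THBS1*, at 45.7% GC, was at -1.28 where the median of its range was 0.23, and *INHBA*, at 39.1%, was at -0.43 where that median was 0.62. The part of GC content in the values of the 10 genes was not tested. Between sh-QKI and sh-Ctrl cells, with the number as a block, the correlation with GC content was 0.099.

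**Figure D3:**
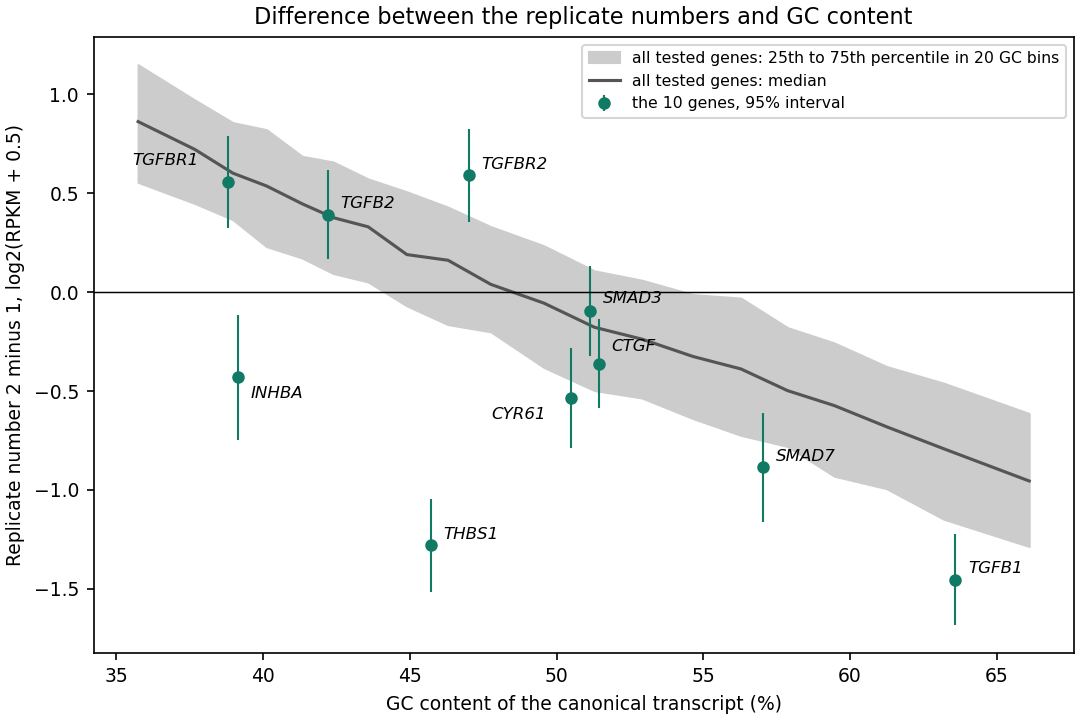
Log2 difference between replicate numbers 2 and 1 (y axis) against the GC content of the canonical transcript in percent (x axis). The line and gray band are the median and the 25th to 75th percentile of all tested genes in 20 bins of GC content, and the points are the 10 genes with 95% intervals of limma; *THBS1* and *INHBA* lie far below the band, *TGFB1*, *SMAD7* and *CYR61* also lie below it, and *TGFBR2* lies above it.

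Of 126 other genes in 9 lists, 119 were listed and 96 tested, and limma called 0 of them without a block and 1 with the number as a block. The lists hold genes of the pathway and, beside it, YAP and TEAD targets, serum response genes and other matricellular genes. The 1 call is near the share of 0.854% called with the block over all tested genes, so the count says nothing particular about these lists. That gene was *ANKRD1*, which encodes a nuclear ankyrin repeat protein and is a target of YAP and TEAD. It was at 10.8 and 11.4 RPKM in sh-QKI libraries 1 and 2, against 6.58 and 7.93 RPKM in sh-Ctrl libraries 1 and 2, so the groups did not overlap. Its log2 difference was 0.59 (standard error 0.13, limma adjusted p = 0.00119 with the block), and 0.68 and 0.50 within number 1 and number 2. It was also called with the block and median centring (limma adjusted p = 0.00332) and by voom with the block (limma adjusted p = 0.0374), but not without a block (limma adjusted p = 1.00). The other 14 tested YAP and TEAD targets were not called; *NT5E*, an ectonucleotidase gene, was at -0.33, with 0.044 and -0.71 within number 1 and number 2, *RND3* was at -0.26, with -0.25 and -0.26, and the list had 8 genes above 0 and 7 below.

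Among 15 other SMAD target genes, 10 were below 0 and 5 above, with a median log2 difference of -0.038. Within both numbers 8 of the 15 were lower in the sh-QKI library, where 16.6% of all tested genes were, and 3 were higher, where 31.7% were. The list was chosen with earlier results of these data known, so these counts were not tested, and 0 of the 15 were called with the block. Among the 8, *ID3* (-0.028 and -0.035 within number 1 and number 2) and *CDKN2B* (-0.047 and -0.028) hardly differed. *ID1* and *ID2*, which encode inhibitors of DNA binding and are known as targets of the BMP branch, were both lower in the sh-QKI library of each number. *ID1* was at 32.8 and 7.44 RPKM in sh-QKI libraries, against 36.3 and 11.7 RPKM in sh-Ctrl libraries, a log2 difference of -0.38 (limma adjusted p = 0.0965 with the block, and 0.0476 with the block and median centring). *ID2* was at 1.87 and 1.39 RPKM in sh-QKI libraries, against 2.33 and 2.21 RPKM in sh-Ctrl libraries, without overlap (log2 difference -0.39, limma adjusted p = 0.388 with the block). *COL1A1*, a collagen gene, was at 54.1 and 29.5 RPKM in sh-QKI libraries, against 51.5 and 18.6 RPKM in sh-Ctrl libraries, with log2 differences of 0.072 and 0.65, and *COL4A1* had log2 differences of 0.19 and 0.40. Neither was called. The summed level of 7 fibroblast markers, *COL1A1* among them, was between 41.3 and 61.5 RPKM in sh-QKI libraries and between 29.0 and 58.6 RPKM in sh-Ctrl libraries. Only 2 of the 7 reached 0.5 RPKM, *COL1A1* and *PDGFRB* (7.11 to 11.8 RPKM), so the sum mostly repeats *COL1A1*. *COL1A2* was at most at 0.0031 RPKM and *COL3A1* at most at 0.0435 RPKM, and *DCN* was listed in no library.

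Of the 11 tested serum response genes, which respond rapidly to growth factors and actin dynamics, all 11 had a log2 difference below 0 with the block, where 4495 of the 11829 tested genes did, with a median of -0.11 and 0 called. *EGR1*, an immediate-early transcription factor gene, was at 10.7 and 19.1 RPKM in sh-QKI libraries, against 18.0 and 15.5 RPKM in sh-Ctrl libraries, so its difference was -0.72 in number 1 and 0.29 in number 2. *SRF*, which encodes the serum response factor itself, was at -0.42 and 0.063 in the same way, and *FOS* at -0.45 and 0.029. *VCL*, which encodes vinculin, was at -0.18 and -0.082. Only 3 of the 11 genes were lower in both numbers. This list too was chosen with earlier results of these data known, and its counts were not tested. *CTGF* and *CYR61* were likewise lower in the sh-QKI library of number 1 and higher in that of number 2, as were *TGFB1* and *INHBA*. *TGFBR2* and *SMAD3* had the reverse. *GAPDH*, which is in none of the lists, also had the pattern, with -0.086 and 0.12. The share of all tested genes with this pattern was not counted, so it cannot be called particular to these genes.

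The other lists had medians between -0.0013 and 0.14. Of the extracellular regulators, *NOG*, which encodes the BMP antagonist noggin, was at 3.67 and 1.198 RPKM in sh-QKI libraries, against 3.005 and 0.564 RPKM in sh-Ctrl libraries (log2 difference 0.46, limma adjusted p = 0.155 with the block), and *GREM1*, which encodes the BMP antagonist gremlin 1, was at -0.18. *FBN1*, the fibrillin gene, was at 0.14 and *FSTL3*, which encodes an activin antagonist, at 0.095, with -0.25 and 0.44 within the numbers. Of the other ligands, *INHBB* was at -0.17, *BMP4* at 0.15 (-0.13 and 0.43 within the numbers), *GDF11* at 0.11 and *GDF15* at 0.11, and of the other receptors *ACVR2B* was at 0.21, *BMPR1A* at 0.20, *ACVR2A* at -0.19 and *ACVR1B* at 0.19. Of the other SMADs, *SMAD6*, the inhibitory SMAD of the BMP branch, was at -0.16 and *SMAD9* at -0.16, while *SMAD1* was at 0.13 and *SMAD2* at 0.039. Of the intracellular regulators, *USP15*, a deubiquitinase gene of the pathway, was at -0.24, the corepressor genes *TGIF2* and *SKIL* were at 0.19 and -0.18 (*SKIL* at 0.10 and -0.47 within the numbers), and *PMEPA1* was at -0.13. The 4 tested matricellular genes outside the 10 were *THBS3* at 0.25, *SPARC* at 0.18, *THBS2* at 0.11 and *TNC* at 0.0025, all log2 differences with the block and none called.

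**Figure D4:**
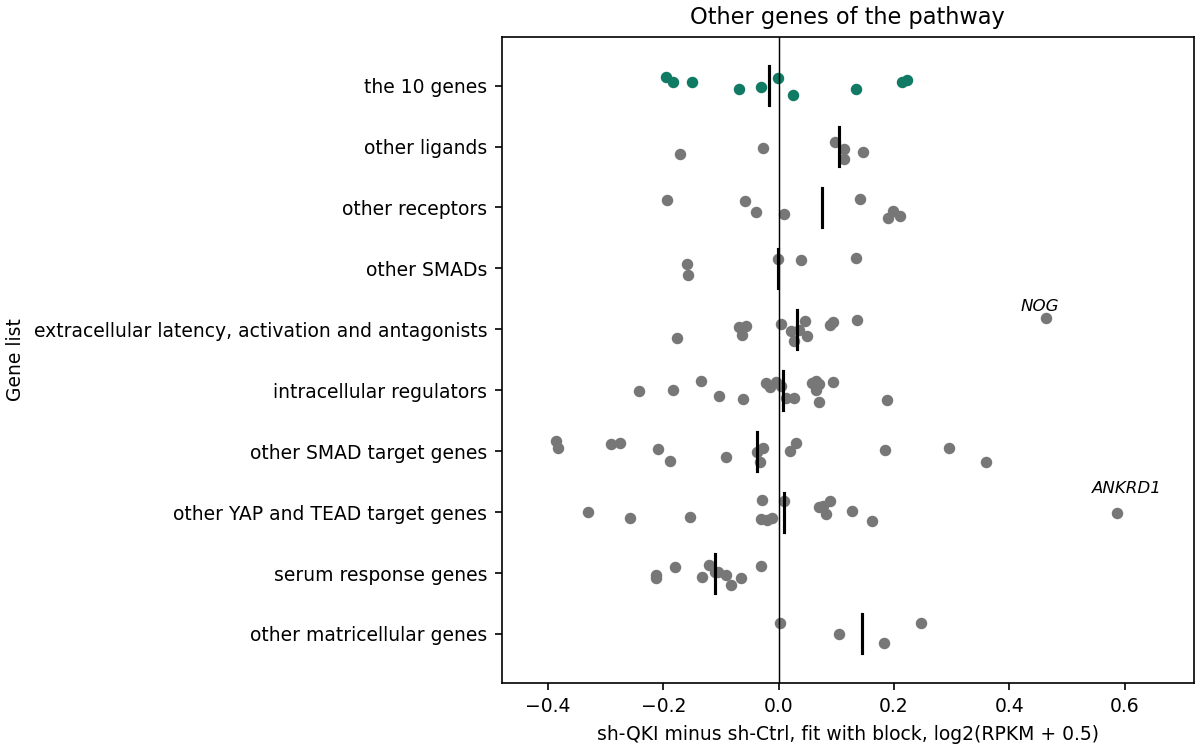
Log2 difference between sh-QKI and sh-Ctrl with the replicate number as a block (x axis) for the 10 genes in green and for the tested genes of 9 other lists in gray, 1 row per list; vertical bars are the median of each row. *ANKRD1* lies farthest from 0, at 0.59, and all 11 serum response genes lie below 0.

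The genes whose pattern over the 4 libraries was most like that of *TGFBR1* were sought among 7639 other genes whose mean reached 5 RPKM, by the Euclidean distance between log2(RPKM + 0.5) values after centring each gene on its mean. *ATL3*, which encodes a GTPase of the endoplasmic reticulum, was nearest at 0.0379, with 13.1 and 19.0 RPKM in sh-QKI libraries 1 and 2, against 11.1 and 16.7 RPKM in sh-Ctrl libraries 1 and 2. *TXNDC15* followed at 0.0461 and *MPZL1*, which encodes a membrane glycoprotein, at 0.0575. The 3 genes were selected for this likeness, so the directions they share with *TGFBR1* follow from the selection.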

How the data were processed

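The authors sequenced single-end reads of 2 lengths from TruSeq libraries of total RNA on an Illumina GAII, and used Bowtie with at most 3 mismatches against hg19 (a build also listed in the submitters' processing notes) and against splice junctions from Ensembl; ambiguous reads were dropped. No version of Bowtie is stated there. They deposited 1 table of RPKM per library, without the lengths and totals used. A gene not listed in a library was given 0. Reads were recovered by taking, for each gene, the smallest length that gave whole reads in its libraries. That 100% of values were whole (relative tolerance 1e-11) follows from this method and is no check of the lengths or reads. The recovered reads had sums over genes of 1.35 to 1.53 times the totals. Reads may therefore be counted more than once, and the exact (Clopper-Pearson) 95% intervals of read ratios may be too narrow.

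For log2(RPKM + 0.5) of all genes whose mean reached 0.5 RPKM, limma (3.58.1, R 4.3.3, trend option) gave two-sided p-values, which were adjusted after Benjamini and Hochberg over all tested genes and called under 0.05. Fold changes on this scale understate those of low genes. The alternatives were the replicate number as a block, median centring, pseudocounts of 0.1 and 1, no filter or 1 RPKM, leaving out each library, and voom on the recovered reads. The fits were also run on simulated reads with a set spread between libraries, which need not match the spread in these data. The GC content, positions and exons are from GENCODE lifted to GRCh37 (97.9% of tested genes had a value). The 10 genes and the lists were chosen with earlier results of these data known. Named beside the 10 genes were *QKI*, up to 4 genes of each list with the largest log2 differences with the block, and the 3 genes nearest to the member with the largest; marker genes and the ratio of the receptors were chosen after their values were seen. The summed level of the leukocyte markers is not reported here. Other steps ran in Python 3.11.15 (pandas 2.3.3, scipy 1.17.1, numpy 2.4.6; figures by matplotlib 3.10.9).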

Additional observations from a re-analysis of the deposited data

How the results depend on the processing

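In sh-QKI against sh-Ctrl cells, the fit without a block gave 0 calls in either direction. With the replicate block it called 58 higher and 43 lower, with the replicate block and median centring 48 and 66, and by voom with the replicate block 69 and 68. Same-numbered libraries deviated together (correlation 0.953 across genes), but no label ties a number to a culture or day. Leaving out 1 library gave between 0 and 2 genes higher and between 0 and 1 lower; the cause was not tested. None of the 10 genes was called under any of these settings. With median centring, with or without the block, *TGFB1* was at -0.0092 in place of 0.025.

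Leaving out 1 library unbalances the numbers between the groups, and the log2 difference of sh-QKI against sh-Ctrl then ranged from -0.78 to 0.83 for *TGFB1*, -0.079 to 0.51 for *TGFB2*, -0.17 to 0.43 for *INHBA*, -0.063 to 0.51 for *TGFBR1*, -0.53 to 0.23 for *TGFBR2*, -0.11 to 0.047 for *SMAD3*, -0.71 to 0.32 for *SMAD7*, -0.49 to 0.13 for *CTGF*, -0.38 to 0.37 for *CYR61* and -0.73 to 0.59 for *THBS1*. The lone library of a group is then assumed to vary like the others. Between the numbers, all differences of the 10 genes kept their direction in the alternatives run, and the call of *CTGF* was also lost without a filter on low values (limma adjusted p = 0.0637). With 3 libraries this comparison was fitted without the group term.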
